A study of Mus musculus with 26 samples.

Results

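Interleukin-33, thymic stromal lymphopoietin (TSLP) and interleukin-25 are alarmins, cytokines that epithelial and stromal cells release when a barrier is damaged, and group 2 innate lymphoid cells (ILC2s) of the lung respond to them by making type 2 cytokines. Interleukin-33 binds ST2, encoded by Il1rl1, which signals only with its partner chain Il1rap. Interleukin-18 is read in the same way by Il18r1 with Il18rap, and interleukin-25 by Il17rb with Il17ra. TSLP is read by Crlf2 paired with Il7r, while interleukin-7 is read by Il7r paired with the common gamma chain Il2rg. Interleukin-2 is read by Il2ra, Il2rb and Il2rg together.

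The 10 genes for these chains, chosen by symbol from the 55401 Ensembl gene identifiers in the count tables, were all found: Il1rl1, Il1rap, Il17rb, Crlf2, Il7r, Il18r1, Il18rap, Il2ra, Il2rb and Il2rg. They were measured by bulk RNA sequencing in 26 libraries of lung ILC2s from wild-type, age-matched female mice (8 to 16 weeks old) of C57BL/6J and of CC030/GeniUnc (CC030), a Collaborative Cross recombinant inbred strain. In the naive group (3 mice per strain, no treatment), cells were sorted as lineage-negative CD90+ CD127+ CD25+ ICOS+ after enrichment on CD25 beads. In the culture experiment, CC030 ILC2s sorted as lineage-negative CD90+ CD127+ ST2+ from 5 mice were kept in 10 ng/mL each of TSLP and IL-33 plus 100 U/mL of IL-2, and received either AR420626 (10 μM), an agonist of the short-chain fatty acid receptor FFAR3, or its DMSO vehicle for 2 or 6 days. No C57BL/6J cells were cultured in these libraries. CD127, CD25 and ST2 are the proteins of Il7r, Il2ra and Il1rl1, so those 3 chains helped to define the cells that were sequenced.

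The libraries of the strains differed in depth and in marker levels. Each C57BL/6J library had between 13533363 and 15234305 gene counts, spread over 15946 to 16553 genes. Naive CC030 libraries held 1324595 to 1524751 counts over 43527 to 46111 genes, and cultured CC030 libraries 227445 to 5320028 counts. In C57BL/6J, ILC2 markers summed to 7503 to 10833 counts-per-million (CPM) units, with Ptgdr2 at or near 0. In naive CC030 the same 10 markers summed to 194 to 202 CPM, with 9 of them called lower and Ptgdr2 called higher. Across all genes tested, 12.2% were called lower and 64.1% higher. These CC030 counts carry the caution on gene positions given below. C57BL/6J library 3 stood apart in markers of other lung cells, with 10298 CPM of the alveolar surfactant gene Sftpc and 881 CPM of the myeloid gene Lyz2, against at most 0.290 and 12.1 CPM in the other libraries. NK cell and ILC1 markers were at 0 in all 3 C57BL/6J libraries. Of the T cell list, Cd3g had 564, 769 and 293 CPM, and the other markers were far lower. Cd3d had 98.4, 4.14 and 1.38 CPM, Trac 60.9, 15.2 and 0.0598, and Cd3e 14.8, 6.24 and 2.09. Cd4 had at most 7.05 CPM and Cd8a 0.

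In naive C57BL/6J ILC2s the common gamma chain and the interleukin-7 receptor dominated the set, and Il1rap, the partner chain of the interleukin-33 receptor, and Il18r1, the binding chain of the interleukin-18 receptor, were close to undetected. Levels were compared between genes as CPM per kb of annotated exon, since a longer gene collects more reads at the same transcript number. In bulk libraries, fewer cells of a type and less RNA per cell cannot be told apart.

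Il2rg (chrX:101264378-101268255, minus strand, GRCm38), the chain shared by the receptors for interleukins 2, 4, 7, 9, 15 and 21, had 608, 691 and 701 CPM per kb in libraries 1, 2 and 3. Il7r (chr15:9505788-9530176, minus strand) had 163, 178 and 176 CPM per kb. The libraries lay close together for both chains, and no Il7r value reached the Il2rg range. Per kb, Il2rg exceeded Il7r 3.74-fold, 3.89-fold and 3.99-fold in the 3 libraries, the steadiest ratio among the partner pairs.

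Il2ra (chr2:11642807-11693193, plus strand), the chain that raises the affinity for interleukin-2, had 84.2, 68.2 and 46.1 CPM per kb. Il1rl1 (chr1:40429570-40465415, plus strand) had 69.1, 46.8 and 47.9 CPM per kb. Their ranges overlapped, so the order of these neighbours was not set by the data, while both lay apart from Il7r above and Il17rb below. Il17rb (chr14:29996135-30008896, minus strand) had 11.01, 24.0 and 17.7 CPM per kb. Il17ra, its partner for interleukin-25, averaged 2.17 CPM per kb.

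The next 3 chains overlapped as a group. Il2rb (chr15:78479256-78495271, minus strand), the signalling chain shared by the receptors for interleukin-2 and interleukin-15, had 8.38, 1.68 and 13.2 CPM per kb, from raw counts of 464, 99 and 946. Crlf2 (chr5:109554709-109558993, minus strand) had 3.89, 2.43 and 16.5 CPM per kb, from raw counts of 75, 50 and 412. Both were highest in library 3, the library with the high Sftpc and Lyz2 levels, and the part of other cells in either value was not tested. Il18rap (chr1:40515362-40551705, plus strand) had 4.32, 7.90 and 2.49 CPM per kb.

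Il1rap (chr16:26581704-26730117, plus strand) had 0, 144 and 39 raw counts, which is 0, 0.920 and 0.205 CPM per kb. Il18r1 (chr1:40465552-40500854, plus strand), the chain that binds interleukin-18, had 35, 5 and 0 raw counts, or 0.563, 0.0754 and 0 CPM per kb. These 2 chains overlapped each other and lay below the other 8 in every library. Il1rap at 0.375 CPM per kb on average stood at the 28.1st percentile of the 14119 protein-coding genes detected, against the 92.3rd for Il1rl1.

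**Figure D1:**
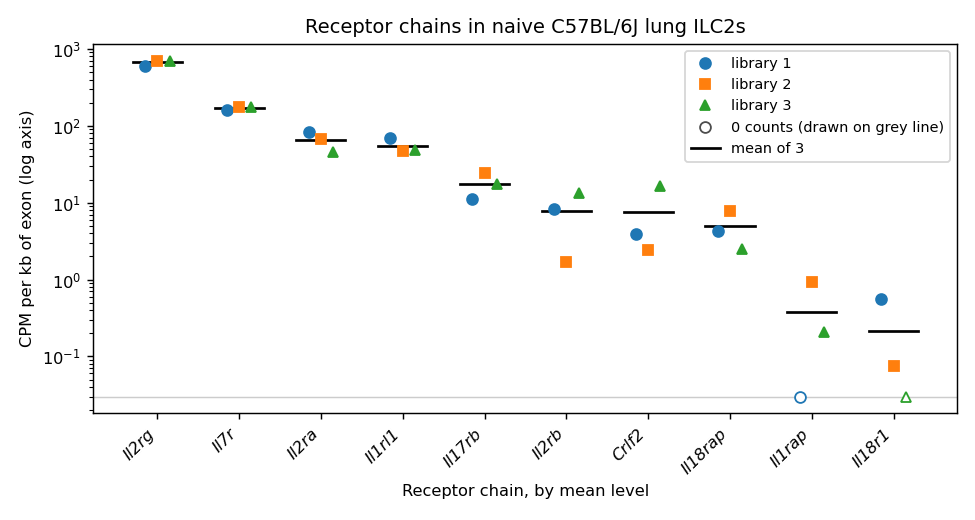
Levels of the 10 receptor chains in the 3 naive C57BL/6J libraries, as CPM per kb of exon on a log axis, with the mean of the 3 as a bar and 0 counts drawn on the grey line. Il2rg (607.7 to 701 CPM per kb) and Il7r stand above the rest, and Il1rap and Il18r1 lie at the bottom with 1 library each at 0.

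Partner chains of one receptor differed in transcript level. Il1rl1 exceeded Il1rap 50.8-fold in library 2 and 233-fold in library 3, and at least 3377-fold in library 1, where Il1rap had no count and was set to a floor of 3 counts in that library. Il18rap exceeded Il18r1 7.68-fold and 105-fold in libraries 1 and 2 and at least 66.8-fold in library 3. Il7r exceeded Crlf2 41.9-fold, 73.1-fold and 10.6-fold, with the smallest ratio in library 3. The ligand-binding and signalling chains did not follow a common rule: the IL-33-binding chain exceeded its partner, whereas the IL-18-binding chain lay below its partner. Within the interleukin-2 receptor, Il2rg exceeded Il2ra 7.22-fold, 10.1-fold and 15.2-fold and Il2rb 72.5-fold, 412-fold and 53.1-fold. The direction of each of these 6 ratios was the same in all 3 libraries, and it rests on 3 mice with no test.

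The promoters of the highest pair (Il2rg, Il7r) and of the low partner chains for the alarmins (Crlf2, Il1rap) are shown as examples that differ in base composition. Each is the 250 bases upstream of the start, 5′ to 3′ on the gene's strand, from RefSeq on GRCm38.p6, with CG pairs in capitals. They lie at chrX:101268256-101268505 (minus strand), chr15:9529877-9530126 (minus strand), chr5:109558994-109559243 (minus strand) and chr16:26581455-26581704 (plus strand), respectively.
Il2rg: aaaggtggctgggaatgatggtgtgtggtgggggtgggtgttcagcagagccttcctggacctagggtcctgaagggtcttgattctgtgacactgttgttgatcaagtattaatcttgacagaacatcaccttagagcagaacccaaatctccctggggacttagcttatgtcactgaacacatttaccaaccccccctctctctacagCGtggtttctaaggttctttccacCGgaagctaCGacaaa
Il7r: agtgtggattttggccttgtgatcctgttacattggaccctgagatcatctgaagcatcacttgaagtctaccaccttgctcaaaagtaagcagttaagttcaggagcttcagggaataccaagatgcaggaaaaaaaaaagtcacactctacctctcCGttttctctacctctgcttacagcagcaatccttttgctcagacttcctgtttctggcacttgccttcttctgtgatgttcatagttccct
Crlf2: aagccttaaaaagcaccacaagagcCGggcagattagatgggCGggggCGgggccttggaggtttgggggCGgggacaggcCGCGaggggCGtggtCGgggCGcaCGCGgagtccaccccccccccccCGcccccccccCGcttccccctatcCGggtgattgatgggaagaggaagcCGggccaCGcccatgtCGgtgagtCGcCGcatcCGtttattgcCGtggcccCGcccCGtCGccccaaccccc
Il1rap: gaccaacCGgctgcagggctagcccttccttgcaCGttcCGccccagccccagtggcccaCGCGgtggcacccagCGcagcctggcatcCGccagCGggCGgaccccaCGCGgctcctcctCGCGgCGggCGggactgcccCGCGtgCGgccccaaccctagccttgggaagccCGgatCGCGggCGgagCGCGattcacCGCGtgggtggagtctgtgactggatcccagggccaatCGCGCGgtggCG

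The Il2rg and Il7r windows held 3 and 1 CG pairs at 49.2% and 44% G and C, whereas those of Crlf2 and Il1rap held 24 and 30 pairs at 71.6% and 74.4%. Over all 32851 windows of this length the medians were 6 pairs and 52.4%. Base composition did not order the chains by level. Il17rb, with a higher mean than Crlf2 and Il1rap, held 27 CG pairs at 72%, whereas Il18r1, the lowest chain by its mean, held 3, 7 and 6 at its 3 starts (40.8% to 56.4% G and C). Il18rap held 4 pairs at 42% and Il2ra 3 at 42.4%. RefSeq windows matched 9 of the 10 members, in 12 windows, and Il2rb had no entry. The Il1rl1 windows held far fewer CG pairs than the window of its partner, with 0 at the first start and 3 at the second. The letters GATAA, searched on both strands, occurred in 3 of the 12 windows (both starts of Il1rl1, and Il18rap) and in 22.6% of all windows. TTCNNNGAA occurred in 2 of the members' windows (Il7r and the third start of Il18r1) and in 7.02% of all, and TGANTCA in 1 (Il17rb) and in 6.75% of all. A match describes letters only, and the motifs did not separate high from low chains.

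Other genes of the same pathways gave context to these levels in C57BL/6J. Among 12 further chains of the receptor families, Sigirr, a brake on receptors of the interleukin-1 family, averaged 14.3 CPM per kb and ranged from 5.45 to 103 CPM, and Il9r averaged 6.56 CPM per kb. Il1r1, the interleukin-1 receptor, averaged 0.0203 CPM per kb, and Il13ra1, Il1rapl1 and Il1rapl2 had no count in any of the 3 libraries. Of 14 ligands and decoys, Il2, the ligand of the trimeric receptor above, was the highest at 241 CPM per kb, and Il9, Il1b, Il21 and Il25 had no count. Of 19 proximal signalling genes, Jak1, which binds the ligand-specific chains, averaged 34.7 CPM per kb, and Jak3, the kinase bound to Il2rg, averaged 3.08. Myd88, the adaptor of the interleukin-33 and interleukin-18 receptors, averaged 12.9 CPM per kb.

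Before values from CC030 were read as levels of these genes, the positions of the counts were checked. CC030 reads had been aligned to a strain-specific genome built on mm9 and then carried to mm10 coordinates, whereas C57BL/6J reads were aligned to mm10. For the genes within 4 Mb of each member, the C57BL/6J profile was shifted along the chromosome by up to 3 Mb and correlated with the CC030 levels. If counts lay on their own genes and the cells expressed the region alike, the best match would be near a shift of 0. The C57BL/6J cells were naive, whereas the day 2 and day 6 cells were cultured. No noise level was set for the highest r over all shifts. These correlations run over genes of one region and are descriptions.

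On gene bodies, 0 of 10 members in the naive libraries and 1 of 10 at day 2 and at day 6 had the best match within 5 kb of no shift. That member was Il1rap, with r = 0.65 at -5 kb and 0.56 at no shift at day 6, and r = 0.71 at no shift when the window was widened to 8 Mb. A sharper form on exons, chosen after the data were seen, gave a shift of -57 kb for Il1rl1, Il18r1 and Il18rap, which neighbour each other on chromosome 1. There r was 0.74, 0.74 and 0.75, against 0.07, 0.06 and 0.06 at no shift. Il7r matched best at 50 kb (r = 0.72, against 0.21 at no shift), Il2rb at 170 kb (0.67 against 0.10), Crlf2 at -429 kb (0.61 against 0.08) and Il17rb at -813 kb (0.68 against -0.08). Il2rg matched best at 2803 kb (0.58 against -0.01), near the limit of the search, and Il2ra had no clear best match (0.37). In the naive CC030 libraries no shift gave any member a Pearson r above 0.34 on gene bodies over 4 Mb, and by Spearman correlation the highest value was 0.42, for Il1rap at -140 kb. With r this low, the check could not tell where the naive counts lay.

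**Figure D2:**
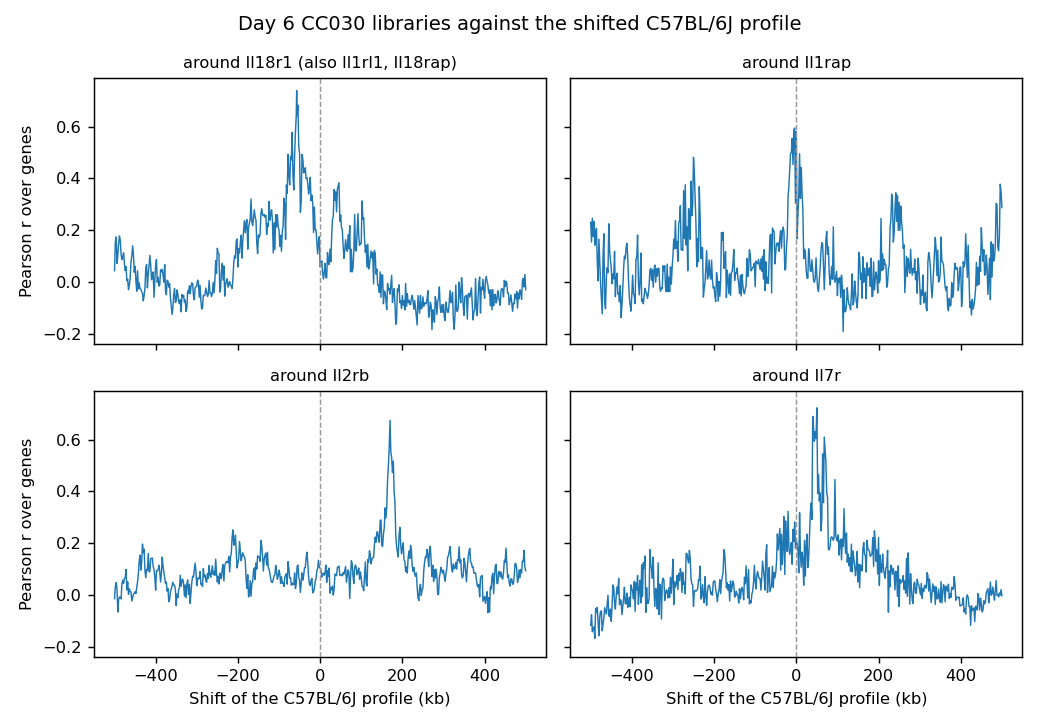
Pearson r over genes within 4 Mb between day 6 CC030 levels and the C57BL/6J exon profile, against the shift of that profile in kb, with the dashed line at no shift. The curve peaks at -57 kb around Il18r1, at 170 kb around Il2rb and at 50 kb around Il7r, and next to the dashed line around Il1rap.

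At these shifts, exons of some members coincided with exons of other genes. The exons of Il1rl1 moved as its match has it shared 503 bases with exons of Il18r1, and those of Il18r1 shared 0 with Il18rap (up to 665 within 1 kb of that shift). The exons of Il18rap then lay on the predicted gene Gm37435 (1023 bases, 23 to 1935 within 1 kb) and on Slc9a4 (349 bases). Those of Il7r lay on Capsl (347 bases) and those of Il17rb on Sfmbt1 (648 bases). Those of Il2rb shared 0 bases with Csf2rb (up to 109 within 1 kb). Those of Il1rap, at -4 kb, shared 2049 of their 11360 bases with Il1rap itself and 278 with Gm20319. Below, a value in CC030 is the count at the annotated place of the gene, and whether it belongs to that gene or to a neighbour cannot be told apart, least of all in the naive libraries.

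The comparison of naive strains asked which receptor chains differed between CC030 and C57BL/6J ILC2s. Counts at 6 of the 10 chains were called lower in CC030 (Il1rl1, Il17rb, Crlf2, Il7r, Il2ra and Il2rg), and none was called higher. Across all 35551 genes tested, 12.2% were called lower and 64.1% higher, and the median log2 fold change of all genes was 7.03, so the strains' libraries differed at most genes. All 10 members passed the filter on low counts.

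Raw counts show the size of the gap. Il2rg had 18726, 22702 and 27975 counts in C57BL/6J and 8, 9 and 1 in CC030 (log2 fold change -9.75, SE 0.80, edgeR adjusted p = 0.00046). Il7r had 9790, 11405 and 13685 against 30, 14 and 34 (-6.67, SE 0.51, edgeR adjusted p = 0.000446). These are the 2 highest chains of C57BL/6J, and both had at most 34 counts in every CC030 library although CD127 protein was part of the gate.

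Il2ra had 6208, 5366 and 4403 counts against 96, 99 and 90 (-3.73, SE 0.41, edgeR adjusted p = 0.00046). Il1rl1 had 6148, 4440 and 5521 against 26, 67 and 35 (-4.89, SE 0.50, edgeR adjusted p = 0.00046). Il17rb had 527, 1227 and 1095 against 34, 28 and 31 (-2.79, SE 0.47, edgeR adjusted p = 0.000836). In these chains no CC030 count came near the C57BL/6J range, although part of the gap in raw counts is depth, which the fold change takes into account.

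Crlf2 had 75, 50 and 412 counts against 0, 0 and 1 (log2 fold change -6.60, SE 1.35, edgeR adjusted p = 0.00216). Summed and set relative to depth, C57BL/6J exceeded CC030 54.1-fold, with a 95% interval of 9.67 to 2140 that covers counting error only.

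The other 4 chains did not pass the threshold. Il18rap had 377, 735 and 281 counts against 44, 75 and 36 (log2 fold change -1.11, SE 0.61, edgeR adjusted p = 0.132), and Il2rb 464, 99 and 946 against 42, 54 and 26 (-1.40, SE 0.76, edgeR adjusted p = 0.129). The chains with the fewest counts in C57BL/6J had positive estimates, 2.78 (SE 1.48, edgeR adjusted p = 0.122) for Il1rap, with 82, 137 and 78 counts in CC030, and 3.35 (SE 1.44, edgeR adjusted p = 0.066) for Il18r1, with 33, 51 and 22. DESeq2 called both of them higher, at adjusted p = 0.035 and 0.0107. Without C57BL/6J library 2, Il1rap was called higher (4.74, edgeR adjusted p = 0.0199) and Il2rb lower (-1.98, edgeR adjusted p = 0.00855). Il18r1 was called higher without C57BL/6J library 1 (5.48, edgeR adjusted p = 0.009) or library 3 (2.40, edgeR adjusted p = 0.036), and Il18rap lower without library 3 (-1.87, edgeR adjusted p = 0.0107).

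**Figure D3:**
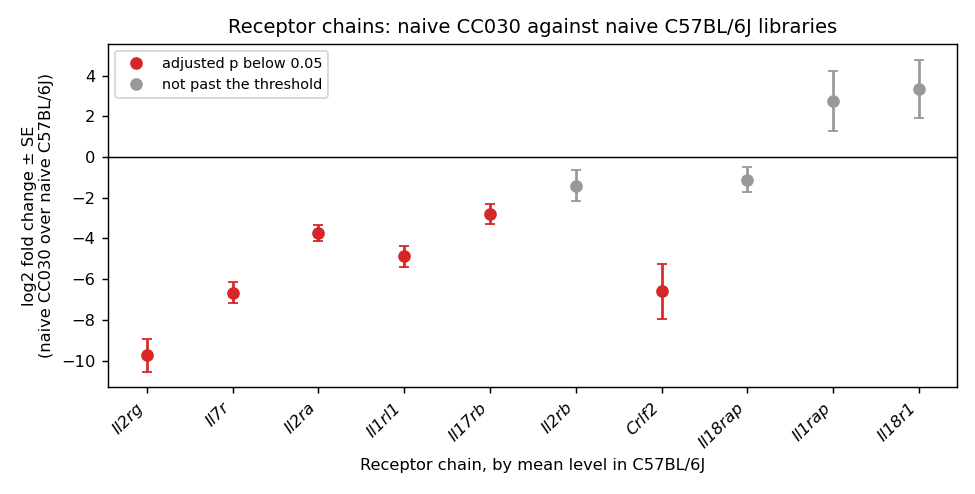
Log2 fold change of the counts at each receptor chain in naive CC030 over naive C57BL/6J libraries (3 mice each) with its SE, ordered by level in C57BL/6J. The 6 chains in red were called lower, with Il2rg lowest at -9.75, and the grey estimates for Il1rap and Il18r1 are positive but not past the threshold.

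The size of these differences depended on the scaling. With library sizes alone in place of TMM, an alternative chosen after the data were seen, the median of all genes moved from 7.03 to 8.12. The 6 chains kept their calls with smaller differences, such as -8.52 for Il2rg, -3.64 for Il1rl1, -2.46 for Il2ra and -1.55 for Il17rb. Il18rap turned to 0.18 (edgeR adjusted p = 0.784), and Il1rap (4.07, edgeR adjusted p = 0.0417) and Il18r1 (4.68, edgeR adjusted p = 0.023) were called higher.

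In CC030 the 10 chains lay within the level of genes without counts in C57BL/6J. The 13291 genes of at least 1 kb with no count in any C57BL/6J library had a median of 5.86 CPM per kb in naive CC030, scaled by library size alone, with a 95th percentile of 14.3. The members ranged there from 0.146 (Crlf2) to 11.5 CPM per kb (Il2ra), and none exceeded that percentile. The means of the same chains in C57BL/6J ran from 0.213 to 666 CPM per kb.

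Of the related genes, 5 of 12 other receptor chains were called higher and 0 lower, against 64.1% and 12.2% of all genes tested. First by smallest p were Il1rapl1 and Il13ra1, with 0 counts in C57BL/6J and means of 93.3 and 29.7 counts in CC030. Both passed the filter on low counts through CC030 alone, so they could only be called higher. Of 12 ligands and decoys tested, 4 were called higher and 3 lower, the latter including Il2 (log2 fold change -6.33, edgeR adjusted p = 0.00046) and Il4 (-2.69, edgeR adjusted p = 0.00978). Of 19 signalling genes, 1 was called higher and 6 lower, with Jak1 (-3.58, edgeR adjusted p = 0.00046) and Jak2 (-3.20, edgeR adjusted p = 0.00046) first. The median log2 fold changes of the 3 lists were 2.52, 2.10 and -0.05.

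The culture experiment asked whether activating FFAR3 changed the response of CC030 ILC2s to the alarmins TSLP and IL-33 with IL-2. The cells of each mouse were split between vehicle and AR420626, so each fit carried the mouse as a block. Counts at the chains were low throughout. Crlf2 had at most 2 counts in any of the 20 libraries and 0 in all 10 with AR420626, and Il2rg at most 22.

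At day 2, the CPM ranges of AR420626 and vehicle overlapped at every receptor chain. Of the 8 chains that passed the filter, 0 were called by edgeR or DESeq2 and 0 had an unadjusted p under 0.05. Across all 20865 genes, edgeR called 0% higher and 0% lower (403 genes had an unadjusted p under 0.05), and DESeq2 called 15 lower. Il18r1 had 45, 40, 42, 25 and 101 counts with vehicle in mice 1 to 5 and 28, 50, 35, 6 and 32 with AR420626 (log2 fold change -0.55, SE 0.49, edgeR adjusted p = 1). Il1rl1 had 42, 52, 65, 36 and 24 counts against 65, 45, 56, 19 and 31 (0.24, SE 0.43, edgeR adjusted p = 1). With library sizes alone the estimate for Il18r1 turned to 0.53, and no chain was called. The estimate farthest from 0 was -1.32 (SE 0.71) for Il2ra, whose CPM was lower with AR420626 in 4 of 5 mice. Il18rap was also lower in 4 of 5 mice (-1.29, SE 0.75), and Il2rb was higher in 5 of 5 (0.65, SE 0.48). In simulated data of this comparison, 29% of genes changed 4-fold and 97% of those changed 16-fold were called, so a change of a few fold could be missed. The changed genes were drawn from those averaging at least 50 counts, with a common dispersion for all genes. Il1rl1, Il17rb, Il7r, Il2ra and Il2rb averaged fewer in both groups, so these shares do not describe them.

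At day 6, counts at the 2 interleukin-18 receptor chains were lower with AR420626 in 5 of 5 mice. Il18r1 had 194, 130, 115, 327 and 93 counts with vehicle in mice 1 to 5 and 17, 46, 36, 15 and 22 with AR420626. Il18rap had 81, 62, 75, 159 and 48 counts with vehicle and 13, 44, 7, 15 and 27 with AR420626. The treatment groups did not overlap at either chain. Scaled with TMM factors, Il18r1 was 159 ± 85.7 CPM with vehicle and 27.9 ± 11.6 with AR420626 (SD, n = 5). In the same order, Il18rap was 79.3 ± 40.3 and 20.2 ± 9.06 CPM (SD, n = 5). The log2 fold changes were -2.13 (SE 0.29, edgeR adjusted p = 7.08e-06) and -1.59 (SE 0.36, edgeR adjusted p = 0.00299). Of the 9421 genes tested, 8.14% were called lower and 3.3% higher. With library sizes alone both chains were still called, at -1.95 and -1.39, while the share of all calls that were higher moved from 28.8% to 46.3%.

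**Figure D4:**
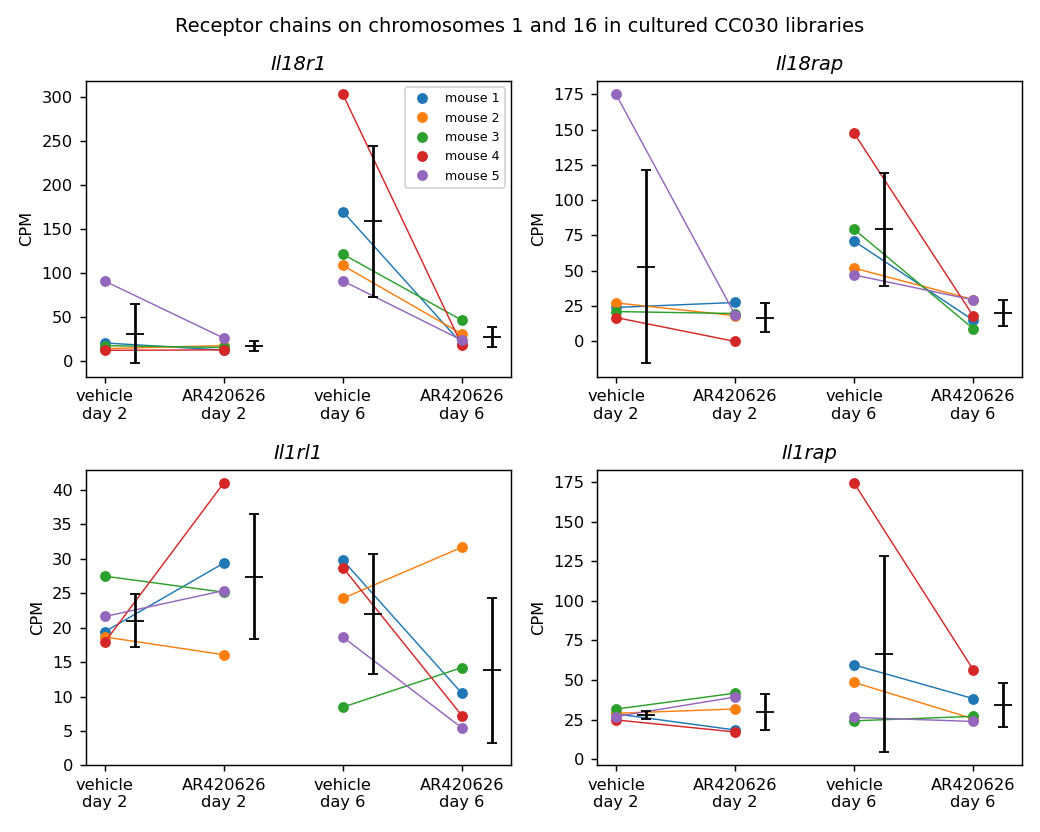
CPM at 4 receptor chains in the 20 cultured CC030 libraries, by treatment and day, with points and lines for the 5 mice and black marks for the mean and SD of 5. At day 6 Il18r1 and Il18rap are lower with AR420626 in every mouse, while the Il1rl1 and Il1rap values overlap; the vehicle library of mouse 5 at day 2 and of mouse 4 at day 6 lie apart.

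Only 5 of the 10 chains had enough counts to be tested at day 6, and 2 of these were called. Il1rl1 had 34, 29, 8, 31 and 19 counts with vehicle and 9, 47, 11, 6 and 5 with AR420626 (log2 fold change -0.49, SE 0.49, edgeR adjusted p = 0.541). Il1rap, the chain whose counts matched its own position best, had 68, 58, 23, 188 and 27 counts against 33, 38, 21, 47 and 22 (-0.38, SE 0.30, edgeR adjusted p = 0.429). Il7r had 13, 19, 7, 2 and 18 counts against 24, 25, 24, 7 and 18, and its CPM was higher with AR420626 in 5 of 5 mice (1.25, SE 0.51, unadjusted p = 0.0198, edgeR adjusted p = 0.111). Among the chains too low to test, Il17rb had at most 18 counts, Il2ra 17, Il2rb 12, Il2rg 6 and Crlf2 2. The CPM of Il17rb was higher with AR420626 in 5 of 5 mice.

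The position check bears on the counts that fell at day 6. The 3 chains on chromosome 1 share the shift of -57 kb, at which exons of Il1rl1 lie on exons of Il18r1. Exons of Il18rap lie there on Gm37435 and, with a smaller overlap, on Slc9a4, a sodium-hydrogen exchanger. Gm37435 averaged 18.2 counts with vehicle and 13.4 with AR420626 and had 0 in C57BL/6J. Slc9a4 averaged 109 counts with vehicle and 14.0 with AR420626 and had at most 1 count in C57BL/6J. Il18r1 itself had 0 to 35 counts in C57BL/6J libraries of far greater depth. Capsl, on which exons of Il7r lie at its shift, had 361 to 1217 counts with vehicle and 199 to 911 with AR420626. On counts scaled by library size alone, without the TMM factors behind the CPM above, Il18r1 at 18.1 and Il18rap at 6.58 CPM per kb in vehicle libraries exceeded the 95th percentile (5.70) of genes silent in C57BL/6J at day 6, and no other member did, while with AR420626 none of the 10 exceeded theirs (5.57).

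At day 6, 2 of the marker genes tested, Gata3 and Ccr3, were called lower beside the interleukin-18 receptor chains. Of 2 ILC2 markers tested, Gata3, the transcription factor that defines ILC2s, was called lower (log2 fold change -1.57, edgeR adjusted p = 0.00154) and Rora was not (-0.05), and the 10 markers summed to 82.5 to 188 CPM with vehicle and 57.3 to 86.6 with AR420626. Of 2 eosinophil markers tested, Ccr3 was called lower (-4.43, edgeR adjusted p = 3.39e-12) and Epx was not (-0.22, edgeR adjusted p = 0.558), and the 4 summed to 711 to 2494 against 468 to 804 CPM, with Siglecf at 0 in both. None of the markers tested for other cells was called, but many were too low to test. Tested were 2 of 6 markers for T cells, 2 of 6 for NK cells and ILC1s, and 1 of 4 for ILC3s. Mast cells and basophils had 2 of 7 tested, B cells 1 of 3, and macrophages and monocytes 3 of 4. Epithelium had 1 of 3 tested, and endothelium and fibroblasts 2 of 3 each. Cd8a came nearest to the threshold (log2 fold change -1.29, edgeR adjusted p = 0.0556). Vehicle libraries held 1143405 to 3420893 counts in genes and AR420626 libraries 1080761 to 1420240. The part of these differences in the result was not tested. Few genes of the related lists were called, with 0 of 5 other receptor chains called, 1 of 3 ligands and decoys (Il4, -1.52, edgeR adjusted p = 0.0372) and 1 of 12 signalling genes (Tab2, -1.21, edgeR adjusted p = 0.0173), both lower.

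Between days, with vehicle, Il18r1 was the single chain called of the 7 tested, and it rose by 2.71 on the log2 scale from day 2 to day 6 (SE 0.79, edgeR adjusted p = 0.0239), where 13.6% of 15819 genes were called higher and 3.73% lower. In mice 1 to 4 its CPM went from 12.4 to 20.8 at day 2 to 109 to 303 at day 6, and in mouse 5 it was 91.0 and 91.2. The vehicle library of mouse 5 at day 2 held the most counts in genes of all cultured libraries. Without mouse 5, Il18r1 rose by 3.47 (edgeR adjusted p = 1.86e-06) and Il18rap was also called higher (2.02, edgeR adjusted p = 0.000731). Without mouse 1, 2, 3 or 4 the Il18r1 call was lost, at edgeR adjusted p = 0.118, 0.0946, 0.0952 and 0.116. With library sizes alone the rise of Il18r1 was 1.65 (edgeR adjusted p = 0.0416), and the median of all genes moved from -0.33 to -1.46 and the share of calls that were higher from 78.5% to 63.1%. Both eosinophil markers tested were called higher between these days, Ccr3 (4.56, edgeR adjusted p = 0.00195) and Epx (3.75, edgeR adjusted p = 0.0433), and their list summed to 33.0 to 1161 CPM at day 2 and 711 to 2494 at day 6. None of 4 ILC2 markers was called. The part of these markers in the rise was not tested. Of 11 other receptor chains tested, 1 was called higher (Il21r, 2.82) and 2 lower (Il1r1, -2.33, and Il9r, -2.05). Of 6 ligands and decoys 1 was called higher (Il4, 2.34), and of 18 signalling genes 1 higher (Tab2, 1.68) and 1 lower (Tyk2, -1.86).

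With AR420626, none of the 8 chains tested was called between days by edgeR or DESeq2 (2 had an unadjusted p under 0.05), where 10% of 14731 genes were called higher and 1.14% lower. Il18r1 had a log2 fold change of 0.43 (SE 0.43) and Il18rap of 0.07 (SE 0.62). Il2rb (-1.70, SE 0.66, edgeR adjusted p = 0.111) and Il1rl1 (-1.38, SE 0.55, edgeR adjusted p = 0.119) had the lowest estimates. These values turned on the scaling. With library sizes alone, Il1rl1 (-2.78, edgeR adjusted p = 0.00833), Il2rb (-3.05, edgeR adjusted p = 0.0117) and Il1rap (-1.41, edgeR adjusted p = 0.0359) were called lower and Il18r1 was at -0.91, while the median of all genes moved from -0.26 to -1.61 and the share of calls that were higher from 89.8% to 12.2%. None of the 9 other receptor chains, 6 ligands and decoys or 18 signalling genes tested was called. Whether the effect of AR420626 differed between day 2 and day 6 was tested as an interaction over all 20 libraries. The difference was -1.92 for Il18r1 (SE 0.81, unadjusted p = 0.0225, edgeR adjusted p = 0.892) and -1.03 for Il18rap (SE 0.89, edgeR adjusted p = 0.994). None of the 8 chains tested passed by edgeR or DESeq2, and 0.0389% of 23141 genes were called with a higher and 0.013% with a lower effect at day 6, so the lower counts at day 6 were not shown to differ from day 2.

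Across the 20 cultured libraries, 3 chains averaged at least 50 counts, and the genes most like them in log2 CPM were sought among 3241 genes at that level. They were Rnmt (r = 0.96) and Phlpp2 (0.93) for Il18rap, Adgrl1 (0.94) and Neb (0.94) for Il18r1, and Rbm39 (0.82) and Erp44 (0.78) for Il1rap. The libraries share mice and differ in depth, and these are descriptions over 20 points.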

How the data were processed

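The authors trimmed reads with fastp, checked them with FastQC, aligned them with STAR and counted reads per Ensembl gene with HTSeq, and deposited the raw counts. CC030 reads were aligned to a strain genome built on mm9 and carried to mm10, and C57BL/6J reads were aligned to mm10. The rows that name no gene were left out of library sizes (genes held 2.06% to 11.1% of the cultured libraries' reads). Symbols and exon lengths came from GENCODE vM21 on GRCm38.

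Genes were tested with the edgeR (4.0.16) quasi-likelihood test in R 4.3.3, with TMM scaling, filterByExpr at a minimum count of 10, and Benjamini-Hochberg adjustment over all genes tested. A call is an adjusted p under 0.05. DESeq2 (1.42.0), other scaling (library sizes alone was added after the data were seen) and filters, the block, and leaving out each replicate were the alternatives. Cultured libraries were blocked by mouse, since the cells of each mouse were split, and deviations of same-numbered libraries correlated at -0.369 to 0.347. Il1rap overlaps an antisense gene, and no source used here states whether counting was stranded. Levels in C57BL/6J were scaled within its 3 libraries, and those in culture within the 20 cultured libraries. The test was run on simulated data, where 1% of genes changed 4-fold and 49% of those changed 16-fold were called between strains, and 95% and 100% at day 6. The changed genes there averaged at least 50 counts, which most chains in culture did not. Each simulation gave all genes a common dispersion and means pooled over both groups. The real strain fit called 27122 of 35551 genes, so the simulated shares between strains do not describe it. The position search was tested on simulated shifts.

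Members, lists and tests were chosen with earlier results of these data known. All 10 members are named, with up to 4 called genes per list and comparison by smallest p, and the 2 most alike genes for each member averaging at least 50 counts in culture. Slc9a4, Gm37435, Gm20319, Capsl and Sfmbt1 were named after the positions were seen, and further genes of the lists for their levels in C57BL/6J.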

Additional observations from a re-analysis of the deposited data

Results flagged for a closer look

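Of 38 sets of 5 libraries (a receptor chain in 1 cultured group), 5 had 1 library far from the other 4, by the gap to its neighbour over the range. Chance flags about 1 in 20 such sets. At day 2 the vehicle library of mouse 5 had 91.0 CPM at Il18r1, where the others had 12.4 to 20.8, and 175 CPM at Il18rap, where the others had 16.9 to 27.3. At day 6 the vehicle library of mouse 4 had 174 CPM at Il1rap, against 24.3 to 59.6 in the others. The vehicle library of mouse 5 at day 6 had 16.7 CPM at Il2ra, from 17 counts, against 6.34 to 8.76. The AR420626 library of mouse 4 at day 2, the shallowest, had 21.6 CPM at Il7r, from 10 counts, against 7.64 to 11.1.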

How the results depend on the processing

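Of the log2 fold changes of single chains under alternatives, 420 kept their direction and their side of the threshold, 17 newly passed it, 4 lost it and 38 changed sign, none of the latter being a call. Between strains, the 6 chains called lower kept their direction in every fit that tested them, and the count of chains called was 6 to 7 on leaving out each library. Requiring 10 counts in every library left 3573 genes called (45.8% higher) in place of 27122 (84.1% higher), with Crlf2 and Il2rg not tested. DESeq2's size factors moved the median log2 fold change of all genes from 7.03 to 7.56. Library sizes alone, added after the data were seen, gave 8 chains called and 0.18 for Il18rap. A replicate block between strains, where numbers share no mouse (same-numbered deviations correlated at -0.0106 to 0.00177, and 1 of 3 libraries was closest to its own number), left the 6 calls and added Il1rap (4.06, edgeR adjusted p = 0.0238). In culture, taking out the mouse block changed no call of a chain. At day 6, Il18r1 ranged from -2.32 to -1.84 and Il18rap from -1.92 to -1.28 on leaving out each mouse. Requiring 10 counts in every library left 1 chain called, as Il18rap was not tested, with 1019 genes called (50.05% higher) in place of 1078 (28.8% higher). Without mice 4 and 5, 361 genes were called, both chains remained called, and Il1rl1 had a log2 fold change of 0.0066. Between days with vehicle, 0 to 2 chains were called on leaving out each mouse and 2 without mice 4 and 5. With AR420626, 1 chain was called without mice 4 and 5 (Il7r, 1.40, edgeR adjusted p = 0.0476) and 3 with library sizes alone, where 6152 genes were called in place of 1647. Genes called over all genes on leaving out each mouse numbered 604 to 1221 at day 6, 994 to 5376 between days with vehicle and 253 to 2772 with AR420626 (2806 by DESeq2 against 1647). The strict filter gave 48.0% of calls higher between days with vehicle and 46.8% with AR420626, against 78.5% and 89.8%. At day 2, DESeq2 and the fit without a filter each called 15 genes. The interaction gave 12 genes, 75 by DESeq2, 2 without the block and 0 to 33 on leaving out each mouse. The causes of these changes were not tested.

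Several signs changed with library sizes alone, which moved the median of all genes to 0.73 at day 2. There Il1rap was 0.94, Il17rb 0.57, Il7r 0.84 and Il18r1 0.53. That scaling gave -0.17 for Il1rap between days with vehicle, and -0.75 for Il7r, -0.91 for Il18r1 and -1.18 for Il18rap with AR420626. Under the other alternatives, at day 2, Il1rap was 0.0050 without the block and -0.22 to 0.045 on leaving out each mouse, Il17rb -0.66 to 0.19 and Il7r -0.57 to 0.064. Between days with vehicle, Il1rl1 was 0.057 without a filter, 0.052 without the block, 0.018 without mice 4 and 5 and -0.45 to 0.30 on leaving out each mouse. Il7r was 0.20 without mice 4 and 5, and the strict filter gave -0.30 for Il1rap and -0.013 for Il18rap. With AR420626, Il1rap was 0.017 by DESeq2, 0.0086 with its size factors, 0.056 without a filter, 0.030 without mice 4 and 5 and -0.35 to 0.28 on leaving out each mouse. Il18rap was -0.067 without the block, -0.32 without mice 4 and 5 and -0.30 to 0.47 on leaving out each mouse, Il17rb -0.77 to 0.032 and Il2ra -0.49 to 0.55. In C57BL/6J the geometric mean of Il2rg over Il7r was 3.87, and 4.20 with the length of the longest transcript. In the position check, 0 chains matched best at no shift by Spearman correlation at day 2 and day 6, and 0 at day 2 on exons, where the main form gave 1.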
